A study of Mus musculus with 26 samples.

Results

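The oxidative phosphorylation genes described here are the genes for the protein subunits of the mitochondrial respiratory chain and ATP synthase, together with a few gene copies and relatives that carry the same name stems. They were chosen by symbol: names beginning Ndufa, Ndufb, Ndufc, Ndufs or Ndufv directly followed by a digit, names beginning Uqcr, Cox4 to Cox8 or Atp5, the 4 genes Sdha to Sdhd, and the mitochondrially encoded mt-Nd, mt-Co, mt-Cytb and mt-Atp genes. A mean value of at least 1 in the table was required, and names that end in -ps plus digits were left out. In all, 102 of 54589 gene symbols met this in at least 1 of 3 tables. There were 90 in the dTAG13 table, 94 in the overexpression table and 92 in the testis table, out of 108, 109 and 94 names that fitted the pattern. The rule itself uses no measured difference between groups, but the family was proposed with earlier results of these data known. At the minimum mean, the dTAG13 table kept Atp5k (mean 1.20) and left out Cox7b2 (mean 0.972), the overexpression table kept Ndufa12 (mean 1.52) and left out Cox7b2 (mean 0.865), and the testis table kept Ndufa11 (mean 1.14) and left out Atp5g2 (mean 0.962).

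The study asked what the protein Tex10 does in mouse germ cells, by RNA-seq of 26 libraries. In the dTAG13 experiment, 129Sv/J cells were collected as untreated epiblast-like cells (EpiLCs, the starting cells) and as primordial germ cell-like cells (PGCLCs, made from EpiLCs) on days 2 and 4 of induction, with DMSO or with dTAG13 (500 nM, a small molecule that leads a tagged protein to be degraded), 2 libraries a group. The authors named the values of this experiment Tex10KO, and the tagged protein is taken here to be Tex10, in all groups of this experiment. In the overexpression experiment, untreated 129Sv/J cells carrying an empty vector (1 library a stage) were set beside 2 clones overexpressing Tex10 (1 library each a stage) as EpiLCs and on days 2, 4 and 6; each clone is 1 line, so clone and overexpression cannot be told apart beyond their agreement. The testis experiment compared 2 Tex10 conditional knockout (cKO) with 2 wildtype C57BL/6N testes; the labels name neither the Cre driver nor the age. No label says that replicate numbers are separate cultures, so p-values measure the spread between these libraries, which may be technical.

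Values are the authors' normalised values, whole reads scaled for library size by the TMM method. Log2 fold changes are differences of log2(value + 1), with their standard errors (SE). A gene was called at a Benjamini-Hochberg adjusted p under 0.05 (limma), over the genes of its table with a mean of at least 1. In shares and medians below, all genes means the genes tested in that fit. The libraries held 5055362 to 8564563 reads in the dTAG13 table, 5227287 to 7484600 in the overexpression table and 6058987 to 7272313 in the testis table. A count of 3 reads, the limit that a count of 0 allows, was worth 0.299 to 0.56 in the libraries of cells. Tex10 itself had values of 110 and 105 in day 4 DMSO cells and 76.8 and 72.8 with dTAG13 (log2 fold change −0.51, SE 0.108, adjusted p = 5.76e-04), was not called at day 2 (106 and 113 against 104 and 94.0, adjusted p = 0.322), was higher in the clones (adjusted p = 2.14e-11) and lower in cKO testis (29.8 and 27.3 against 79.1 and 44.1, adjusted p = 0.00318). dTAG13 acts on protein, which was not measured. EpiLC, germ cell and pluripotency markers followed the stage labels: all 6 formative epiblast markers fell from EpiLC to day 2 in DMSO cells, while 5 of 7 germ cell markers and 6 of 8 pluripotency markers rose.

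The respiratory chain passes electrons from NADH through complex I (NADH dehydrogenase) and from succinate through complex II (succinate dehydrogenase, also an enzyme of the TCA cycle) to complex III (the cytochrome bc1 complex) and complex IV (cytochrome c oxidase). The proton gradient this makes drives complex V, the ATP synthase. Complex II is encoded in the nucleus alone; the others combine nuclear subunits with a few core subunits that the mitochondrion transcribes itself from a small circular genome, as long transcripts that are then cut into single mRNAs. Mammalian male germ cells are known for their own versions of several subunits, among them Cox6b2, Cox7b2 and Cox8c of complex IV.

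In the dTAG13 and overexpression tables the members were 7 mitochondrially encoded genes, 75 nuclear subunit genes (35 of complex I, 4 of II, 8 of III, 12 of IV and 16 of V), 7 and 10 copies, and 1 and 2 related factors (Cox7a2l, a factor for assembling respiratory supercomplexes, and Ndufa4l2, a relative of the complex IV subunit Ndufa4). The testis table held 78 nuclear subunit genes (36, 4, 7, 16 and 15), 7 mitochondrially encoded genes, 5 copies and both related factors. Counting reads for many members depends on sequence shared with other genes, so the sequences are shown first.

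Of the mitochondrially encoded genes, mt-Nd1, mt-Nd2, mt-Nd4, mt-Nd5 and mt-Nd6 (complex I), mt-Cytb (complex III) and mt-Co1 (complex IV) were measured, whereas mt-Co2, mt-Co3, mt-Atp6, mt-Atp8, mt-Nd3 and mt-Nd4l fell below the minimum in both tables of cells. The highest value was 0.155 for mt-Co2, 0.665 for mt-Co3, 0.398 for mt-Atp6, 0.147 for mt-Atp8 and 0.299 for mt-Nd4l, and mt-Nd3 was at 0 in all 22 libraries of cells. In GENCODE M21 (GRCm38), the share of a gene's stretches of 50 bases that also occur in transcripts of other genes was 100% for mt-Co2, 99.9% for mt-Co3, 99.5% for mt-Atp6, 98.8% for mt-Nd4l and 98.0% for mt-Nd3. It was 62.2% for mt-Nd4, 51.1% for mt-Co1, 8.2% for mt-Nd2, 7.6% for mt-Nd5 and 0.0% for mt-Nd1, mt-Cytb and mt-Nd6. The share did not follow the values throughout: mt-Atp8, near 0, had 0.0% shared, while mt-Nd4 and mt-Co1 were among the highest members. The partners are nuclear copies of mitochondrial DNA; how the authors treated reads that fit several places is not given in the sources used here, and its part in these values was not tested. One stretch of each kind is shown 5′ to 3′ to make this visible, first bases 316 to 365 of mt-Co2 (chrM:7013-7696, plus strand), which are identical in the nuclear copy Gm28661, and then bases 759 to 808 of mt-Nd2 (chrM:3914-4951, plus strand) with the same stretch of the nuclear copy Gm13339, whose capitals mark its 3 differences from mt-Nd2.
mt-Co2: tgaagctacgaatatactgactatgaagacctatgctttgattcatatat
mt-Nd2: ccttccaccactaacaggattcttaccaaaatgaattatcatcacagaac
Gm13339: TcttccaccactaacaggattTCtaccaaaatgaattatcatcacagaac

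For several nuclear subunits most of the reads lay on a copy that holds the spliced coding sequence; the part of shared sequence in these values was not tested either. Of 96 nuclear names, 30 shared at least 10% of their 50-base stretches with other genes. Atp5pb, the stalk subunit b of ATP synthase, is 98.7% identical to its copy Atp5pb-ps over 696 aligned bases, and its mean in the overexpression table was 24.0 against 312 for the copy. Cox5b (complex IV) was 99.2% identical to Cox5b-ps, with means of 4.75 and 193. Ndufa12 (complex I) was 99.5% identical to Ndufa12-ps, with means of 1.52 and 71.8, and Ndufs5 (complex I) was 99.4% identical to Ndufs5-ps, with means of 0.521 and 58.8. Some junctions between exons of these genes lie whole in the copy: the 50 bases around the junction were found unbroken for 2 of 6 coding junctions of Atp5pb, 2 of 3 of Cox5b, 3 of 3 of Ndufa12 and 1 of 1 of Ndufs5. One such junction of each gene is shown, with the last 5 bases of one exon and the first 5 of the next in capitals; the copy holds the same 50 bases.
Atp5pb: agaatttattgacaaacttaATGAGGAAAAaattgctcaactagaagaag
Cox5b: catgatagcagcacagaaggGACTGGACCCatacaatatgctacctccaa
Ndufa12: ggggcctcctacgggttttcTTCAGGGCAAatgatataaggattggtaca
Ndufs5: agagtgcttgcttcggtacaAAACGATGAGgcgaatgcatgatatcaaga

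The pattern was not the same for every pair. Atp5c1 was above Atp5c1-ps (21.5 against 3.36 in the overexpression table, 90.7% identical), and Cox6c and Cox6c2 were about level in the cells (21.1 and 19.9, 97.0% identical). Ndufa11 and its copy Ndufa11b had means of 9.59 and 7.63 in the dTAG13 table, 5.64 and 65.6 in the overexpression table and 1.14 and 45.2 in testis. Ndufb4 and Ndufb4c (100% identical) had 4.03 and 0.660, then 1.81 and 4.68, then 2.00 and 4.29. The order within these pairs thus differed between tables, also between the dTAG13 and testis tables. The reason was not tested. The value of a gene with such a copy, and that of the copy, is therefore uncertain; each is reported under the name in the table.

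**Figure D1:**
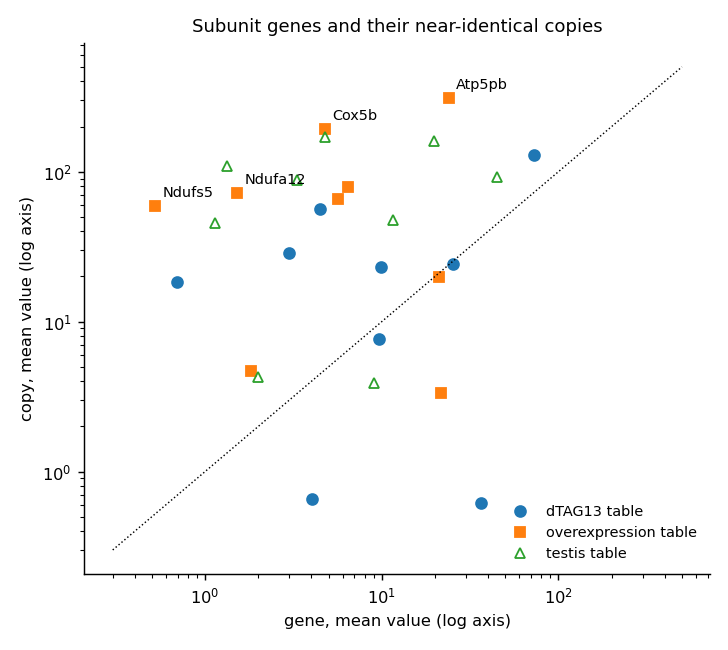
Mean value of each subunit gene (x axis, log scale) against that of its copy (y axis, log scale) in the dTAG13, overexpression and testis tables; the dotted line marks equal values. The labelled Atp5pb, Cox5b, Ndufa12 and Ndufs5 lie far above the line in the overexpression table (copies at 312, 193, 71.8 and 58.8), and Atp5c1 lies below it.

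The first comparison follows the members from EpiLC into PGCLC stages in cells without dTAG13; the EpiLCs were untreated and the PGCLCs had DMSO, so stage and DMSO cannot be told apart in the first step. In DMSO cells the summed value of the 7 mitochondrially encoded genes was 20838 and 18885 in EpiLCs, 32742 and 23872 on day 2, and 36313 and 20090 on day 4, which is 1.99% to 4.19% of all reads. Both day 2 libraries lay above both EpiLC libraries, but the replicates of a day differed from each other by more than the nearest libraries of EpiLC and day 2, replicate 1 being high on both days. Of the 7 genes, 4 were called higher on day 2 and none lower, with a median log2 fold change of 0.52, beside −0.03 for all 16605 genes tested. Of all genes 26.2% were called (11.5% higher and 14.7% lower), and of the 90 members 8 were called higher and 1 lower. These calls depended on the settings: no member was called without the minimum mean (7.63% of all genes) or without the trend (19.9%). Few members were called without EpiLC replicate 2 or without day 2 DMSO replicate 1. The range of shares of all genes in such fits is given under "How the results depend on the processing".

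mt-Nd5, a proton-pumping core subunit of complex I, had values of 2609 and 2228 in EpiLCs and 4527 and 3210 on day 2 (log2 fold change 0.66, SE 0.171, adjusted p = 0.00619). mt-Nd2, another such subunit, had 1518 and 1266 against 2635 and 1823 (0.66, SE 0.190, adjusted p = 0.0125), and mt-Nd1, which helps form the quinone site, 3151 and 2721 against 5318 and 3573 (0.57, SE 0.211, adjusted p = 0.0493). In each the day 2 libraries were above the EpiLC libraries without overlap, with replicate 1 the highest. mt-Nd4 also rose (0.47, adjusted p = 0.0480), whereas mt-Co1 (0.40, adjusted p = 0.193), mt-Cytb (0.45, adjusted p = 0.0939) and mt-Nd6 (0.52, adjusted p = 0.0651) did not pass. Without day 2 DMSO replicate 1 none of the 7 passed: mt-Nd5 then stood at 0.41 (adjusted p = 0.154) and the median at 0.29.

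The nuclear subunits did not move as a group in this step: 3 of 75 were called higher and 1 lower, with a median of 0.04. Atp5d and Atp5j of complex V rose; Atp5d, the delta subunit of the central stalk, had 69.2 and 65.4 in EpiLCs and 101 and 80.7 on day 2 (log2 fold change 0.42, SE 0.138, adjusted p = 0.0286). Atp5b, the catalytic beta subunit and the most abundant nuclear member, was the one that fell, from 565 and 638 to 502 and 483 (−0.29, SE 0.105, adjusted p = 0.0482). Its groups did not overlap. Its call was lost with median-ratio scaling and with scaling by genes that are not mitochondrially encoded, where no member was called lower. Cox7a2l rose as well (39.0 and 48.1 against 60.6 and 63.1, log2 fold change 0.50, adjusted p = 0.0181). No nuclear subunit of complexes I, II or III was called here.

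Between day 2 and day 4 in DMSO cells 3 members were called higher and none lower, 3.33% of the members beside 5.52% of all genes (2.44% higher and 3.08% lower). No mitochondrially encoded gene was among them (median −0.05). Atp5g3, which encodes the membrane c subunit of ATP synthase, had 28.5 and 48.7 on day 2 and 57.0 and 77.3 on day 4 (log2 fold change 0.81, SE 0.226, adjusted p = 0.0353). Sdhc, a membrane anchor of complex II, had 44.5 and 43.8 against 59.4 and 73.7 (0.57, SE 0.142, adjusted p = 0.0177). Cox6b2, the testis form of a complex IV subunit, rose at both steps, with 17.4 and 15.6 in EpiLCs, 23.5 and 21.8 on day 2 (0.44, SE 0.151, adjusted p = 0.0363) and 35.5 and 38.0 on day 4 (0.67, SE 0.151, adjusted p = 0.00839). Its widely expressed counterpart Cox6b1 stayed between 19.6 and 26.2 in these 6 libraries and was not called at either step (adjusted p = 0.973 and 0.954). The day 4 step rests on little for the mt- genes: without day 4 DMSO replicate 1 their median was −0.50, and mt-Co1, mt-Cytb and mt-Nd4 were then called lower.

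The overexpression table gives these stages, and day 6, in 3 other lines, fitted together with a term for line: the empty vector line and both clones that overexpress Tex10, so that most of the libraries behind these steps are not controls. From EpiLC to day 2, 22 members rose and 6 fell, 29.8% of members beside 46.3% of all genes (24.1% higher and 22.1% lower). The summed mitochondrially encoded value was 56185, 48948 and 49035 in EpiLCs of the vector line and the clones and 61280, 84104 and 72665 on day 2, so all day 2 libraries were above all EpiLC libraries. Of the 7 genes 5 rose in this pooled fit, with a median of 0.62 beside 0.01 for all genes. The lines differed in size: the median step over the 7 genes was 0.17 in the vector line, 0.93 in clone 1 and 0.57 in clone 2, and in the vector line alone mt-Nd6 (0.74), mt-Nd2 (0.61) and mt-Nd5 (0.41) stood highest and mt-Nd1 (−0.17) and mt-Cytb (−0.11) below 0, with 1 library a stage and no test. mt-Nd6, which is read from the opposite strand of the mitochondrial genome (chrM:13552-14070, minus strand), had 90.6, 90.1 and 92.2 in EpiLCs and 152, 253 and 172 on day 2 (log2 fold change 1.04, SE 0.116, adjusted p = 1.83e-08). mt-Nd2 had 3495, 2879 and 2900 against 5338, 6549 and 5362 (0.89, SE 0.0946, adjusted p = 5.91e-09), and neither gene's groups overlapped. mt-Nd1 (0.13, adjusted p = 0.295) and mt-Cytb (0.22, adjusted p = 0.0744) did not pass in the pooled fit.

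In the same step 14 of 75 nuclear subunits rose and 4 fell, with a median of 0.07. They were spread over the complexes: 3 of 35 rose and 1 fell in complex I, 2 of 4 rose in II, 1 rose and 1 fell of 8 in III, 4 rose and 1 fell of 12 in IV, and 4 rose and 1 fell of 16 in V. Cox6b2 rose again, from 8.26, 14.9 and 17.4 to 17.7, 21.6 and 32.5 (0.79, SE 0.165, adjusted p = 2.29e-04), but was not called in these lines from day 2 to day 4 (0.32, adjusted p = 0.169) or from day 4 to day 6, where it stood lower in all 3 (−0.52, adjusted p = 0.0538). Atp5d rose again too, from 73.6, 84.4 and 76.2 to 124, 117 and 131 (0.66, SE 0.0878, adjusted p = 3.79e-07). Ndufb1, an accessory subunit of complex I, fell from 6.46, 11.2 and 8.10 to 4.31, 3.08 and 3.48 (−1.03, SE 0.249, adjusted p = 0.00115). Atp5l, the membrane subunit g of ATP synthase, fell by 0.55 on the log2 scale (adjusted p = 0.0123). The copy Ndufb11b fell from 19.5, 21.6 and 19.0 to 7.47, 12 and 11.2 (−0.93, SE 0.158, adjusted p = 1.90e-05) and rose again by day 4 (0.86, adjusted p = 1.75e-04).

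Ndufa4l2, a relative of Ndufa4 known to be induced in cells short of oxygen, is counted among the members that rose in this step. It reached the minimum mean only through its PGCLC libraries, so its call in that step supports nothing, and the step from EpiLCs is described by values alone. Its values were 0.901, 0.298 and 0 in EpiLCs, at or near the 3-read limit, then 16.1, 8.32 and 9.39 on day 2, 50.1, 27.2 and 26.5 on day 4 and 53.5, 38.6 and 42.7 on day 6. The step from day 2 to day 4 was called (log2 fold change 1.53, SE 0.188, adjusted p = 6.02e-07) and that to day 6 was not (0.41, adjusted p = 0.200). In the dTAG13 table, which covers EpiLCs and days 2 and 4, Ndufa4l2 did not reach the minimum mean: it had 2.28 and 1.66 in EpiLCs and 0.537 and 0.896 in day 4 DMSO cells. The tables were normalised separately and made with different kits, so no test was made across them. Of 20 glycolysis genes in the step to day 2, 3 rose and 14 fell in DMSO cells, beside 11.5% and 14.7% of all genes, and 6 rose and 6 fell in the 3 lines of the overexpression table, beside 24.1% and 22.1%.

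After day 2 little was called. From day 2 to day 4 in the vector line and both clones 3 members rose and 8 fell, 11.7% beside 23.0% of all genes (11.1% higher and 11.9% lower), with mt-Co1 (−0.47, adjusted p = 0.00235) and mt-Cytb (−0.31, adjusted p = 0.0279) among those that fell. Uqcrc1, a core subunit of complex III, rose (35.2, 24.6 and 36.6 to 46.3, 36.8 and 40.1, log2 fold change 0.36, adjusted p = 0.0349). Cox7a2l fell from 101, 127 and 144 to 84.9, 90.4 and 88.3 (−0.48, SE 0.0971, adjusted p = 5.17e-04). The copy Cox6c2 (−0.56, adjusted p = 0.0184) and Atp5k, subunit e of ATP synthase (−0.91, adjusted p = 0.0418), fell too, Atp5k at values of 0 to 2.62 where 3 reads limit the precision. Without the day 4 library of clone 1, 5 members were called beside 15.2% of all genes.

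From day 4 to day 6 in the vector line and both clones 3 members fell and none rose, 3.19% beside 6.88% of all genes (3.49% higher and 3.38% lower). mt-Nd6 had 159, 165 and 141 on day 4 and 74.7, 90.7 and 109 on day 6 (log2 fold change −0.77, SE 0.116, adjusted p = 7.54e-05). mt-Nd2 had 4871, 5450 and 6006 against 3847, 4446 and 4456 (−0.35, SE 0.0946, adjusted p = 0.0195). Ndufb11, an accessory subunit of complex I, fell by 0.42 (adjusted p = 0.0390). The groups of mt-Nd6 and mt-Nd2 did not overlap. Leaving out the day 6 vector library or either day 6 clone library left 1 call, beside 5.11%, 2.69% and 3.17% of all genes.

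**Figure D2:**
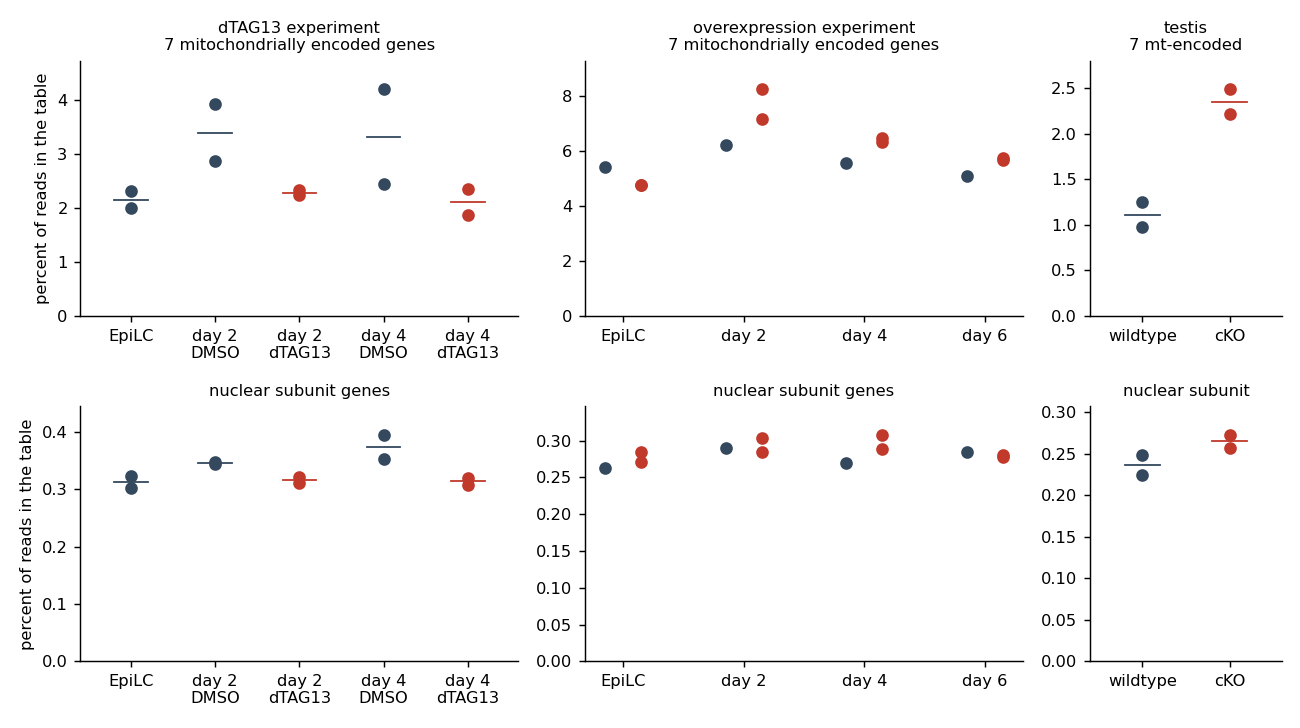
Summed value as percent of all reads (y axes, from 0) for the 7 mitochondrially encoded genes (top) and the nuclear subunit genes (bottom) in each library of the 3 experiments; red points are dTAG13, overexpression clone or cKO libraries, dark points the others, and short lines are means of 2. Mitochondrially encoded genes take 1.99% to 4.19% of reads in EpiLC and DMSO libraries and 1.87% to 2.34% in dTAG13 libraries, and replicate 1 is the high DMSO library on both days.

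The second comparison asks what dTAG13 did on each day. On day 2 no member was called higher and 27 of 90 were called lower; of all 16605 genes 33.6% were called, 13.7% higher and 19.9% lower. On day 4, 1 member was called higher and 38 lower (43.3% in all and 42.2% lower), beside 41.8% of all genes, 15.8% higher and 26.0% lower. The medians of the members were −0.31 and −0.42, those of all genes −0.09 and −0.13. With median-ratio scaling all genes moved to medians of 0.00 and −0.02, and 21 and 27 members were then called lower, with 0 and 2 higher. Of all 16605 genes, 2445 and 3221 were then lower and 2799 and 3245 higher. That scaling also took the share of all calls that were higher from 40.7% to 53.4% on day 2 and from 37.8% to 50.2% on day 4. Day 2 and day 4 have separate DMSO libraries. Both days shared 19 members called lower, 70.4% of the day 2 list and 50% of the day 4 list; over all genes the shared 2568 made up 77.6% and 59.4%, so the overlap is no larger in the members. Without the minimum mean 14 and 24 members were called in all on the 2 days, beside 11.8% and 16.3% of all genes, and without the trend 15 and 25, beside 26.9% and 36.9%.

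The mitochondrially encoded genes had a summed value of 32742 and 23872 in day 2 DMSO cells and 17587 and 18196 with dTAG13, and of 36313 and 20090 against 14817 and 19137 on day 4. The dTAG13 libraries were lower on both days without overlap, and they were below or near the EpiLC libraries (20838 and 18885). On day 2, 5 of 7 genes were called lower (median −0.72) and on day 4, 6 of 7 (median −0.65). The DMSO replicates differed from each other on both days, and day 4 DMSO replicate 2 lay close to the higher dTAG13 library.

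mt-Nd1 was the member with the lowest log2 fold change among the mt- genes on both days: 5318 and 3573 in DMSO against 2290 and 2339 with dTAG13 on day 2 (−0.91, SE 0.211, adjusted p = 0.00199), and 5818 and 3052 against 1665 and 2117 on day 4 (−1.17, SE 0.211, adjusted p = 1.27e-04). mt-Nd2 had 2635 and 1823 against 1203 and 1220 (−0.86, SE 0.190, adjusted p = 0.00138), then 2761 and 1570 against 899 and 1080 (−1.08, SE 0.190, adjusted p = 9.05e-05). Groups did not overlap for either gene on either day.

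mt-Nd5 (−0.72 on day 2, adjusted p = 0.00249, and −0.68 on day 4, adjusted p = 0.00272) and mt-Cytb, the cytochrome b core of complex III (−0.73, adjusted p = 0.00534, and −0.65, adjusted p = 0.00992), also fell on both days. mt-Nd4 fell on both days (−0.60, adjusted p = 0.0105, and −0.52, adjusted p = 0.0193), but on day 4 its groups overlapped: 2045 and 1228 in DMSO, 958 and 1272 with dTAG13. mt-Nd6 was called on day 4 and not on day 2 (624 and 384 against 439 and 388 on day 2, adjusted p = 0.376, then 698 and 407 against 339 and 348, adjusted p = 0.0161). mt-Co1, the catalytic core of complex IV and the gene with the highest value of all members, was called on neither day (12772 and 9939 against 7841 and 8217, adjusted p = 0.0929, then 15866 and 7952 against 6931 and 9023, adjusted p = 0.0700).

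Much of this rested on replicate 1 of the DMSO cells. Without day 2 DMSO replicate 1, 7 members were called lower on day 2 beside 21.7% of all genes, and of the mt- genes only mt-Nd2 remained (−0.59, adjusted p = 0.0490). Without day 4 DMSO replicate 1, 24 members were called lower and 2 higher beside 35.5% of all genes, and mt-Nd1 (−0.70, adjusted p = 0.00125), mt-Nd2 (−0.67, adjusted p = 0.00110) and mt-Nd5 (−0.41, adjusted p = 0.0343) kept their calls while the median of the 7 was −0.28. With that library left out, mt-Co1 stood at −0.01.

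The nuclear subunits of every complex had negative medians on both days, as did all genes tested (−0.09 and −0.13). Day 2 calls were 5 of 35 lower in complex I (median −0.19), 1 of 4 in II (−0.21), 2 of 8 in III (−0.26), 2 of 12 in IV (−0.36) and 6 of 16 in V (−0.40). Day 4 calls were 8 of 35 lower in complex I (−0.29), 2 of 4 in II (−0.50), 5 of 8 in III (−0.61), 6 of 12 lower and 1 higher in IV (−0.54) and 5 of 16 in V (−0.42). In all, 16 of 75 were called lower on day 2 (21.3%, beside 19.9% of all genes) and 26 of 75 on day 4 (34.7%, beside 26.0%), and in complex I the shares were 14.3% and 22.9%. The day 2 share of nuclear subunits is thus near that of all genes, and that of complex I is below it on both days. No difference between complexes was tested.

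**Figure D3:**
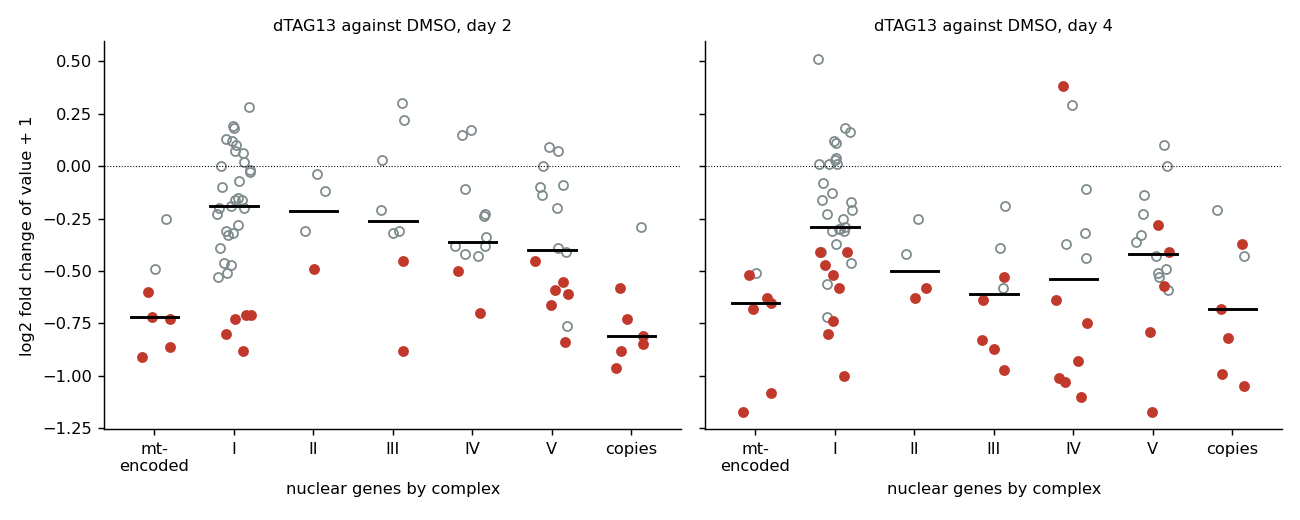
Log2 fold change of value + 1 (y axis), dTAG13 against DMSO, for each member on day 2 (left) and day 4 (right), by genome and complex; filled red points were called, open points were not, and bars are medians. On day 4 the medians lie between −0.29 for complex I and −0.68 for the copies, and the one filled point above 0 is Cox4i1.

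In complex I, Ndufb10 (13.3 and 11.4 against 6.37 and 6.15 on day 2, log2 fold change −0.88, adjusted p = 0.0158, and 24.1 and 10.7 against 7.19 and 7.95 on day 4, −1.0, adjusted p = 0.00505) and Ndufv3, a small subunit of the NADH-binding module, fell on both days. Ndufv3 had 40.5 and 32.2 against 20.8 and 22.6 on day 2 (−0.71, SE 0.157, adjusted p = 0.00136). Ndufs8, an iron-sulfur subunit that passes electrons towards quinone, fell on day 4 (22.8 and 15.7 against 12.5 and 9.53, −0.74, adjusted p = 0.00652); on day 2 it had 21.3 and 15.5 against 14.9 and 13.8 (−0.32, adjusted p = 0.253), and the difference between the days was not called (adjusted p = 0.617). Groups did not overlap in these comparisons.

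In complex II, Sdhd, a membrane anchor, fell on both days, from 90.2 and 91.1 to 64.2 and 64.1 (log2 fold change −0.49, SE 0.139, adjusted p = 0.00887) and from 106 and 76.8 to 63.1 and 52.9 (−0.63, SE 0.139, adjusted p = 8.88e-04). Sdhc fell on day 4 (59.4 and 73.7 against 45.6 and 42.1, −0.58, SE 0.142, adjusted p = 0.00223), while on day 2 it stood at −0.12 (adjusted p = 0.557; difference between the days, adjusted p = 0.351). The flavoprotein Sdha had 85.0 and 85.2 against 77.9 and 88.2 on day 2 and 91.0 and 81.4 against 74.2 and 69.9 on day 4, and the iron-sulfur subunit Sdhb 15.5 and 18.3 against 14.8 and 12.2, then 21.8 and 21.0 against 17.0 and 14.6 (adjusted p = 0.214 and 0.0757). Neither was called.

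In complex III, Uqcrfs1, the Rieske iron-sulfur protein, had 96.1 and 93.2 against 67.6 and 70.9 on day 2 (log2 fold change −0.45, SE 0.116, adjusted p = 0.00505) and 97.6 and 94.3 against 70.7 and 61.5 on day 4 (−0.53, SE 0.116, adjusted p = 7.95e-04). Uqcrq had 50.8 and 32.4 against 25.2 and 18.5 (−0.88, SE 0.197, adjusted p = 0.00147), then 57.8 and 39.9 against 24.8 and 23.4 (−0.97, SE 0.197, adjusted p = 4.26e-04). Uqcr10 (−0.87, adjusted p = 3.66e-04), Uqcrb (−0.83, adjusted p = 0.0100) and Uqcrh (−0.64, adjusted p = 0.00848) fell on day 4. The core protein Uqcrc1 was not called on either day (adjusted p = 0.227 and 0.261).

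In complex IV, Cox7c fell from 27.5 and 20.2 to 13.8 and 14.4 on day 2 (log2 fold change −0.70, SE 0.177, adjusted p = 0.00405) and from 26.0 and 26.3 to 11.6 and 11.8 on day 4 (−1.10, SE 0.177, adjusted p = 3.43e-05). Cox5a, which lies on the matrix side of the enzyme, fell on both days too (−0.50, adjusted p = 0.0286, and −1.01, adjusted p = 5.83e-05), and Cox6c on day 4 (−1.03, adjusted p = 4.74e-05). Cox4i1, a large nuclear subunit, went the other way: it had 135 and 111 in day 4 DMSO cells and 158 and 160 with dTAG13 (0.38, SE 0.112, adjusted p = 0.00967). Its groups did not overlap, and it was the one member called higher on day 4.

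The 2 forms of subunit 6b also differed in what was called. Cox6b1 had 22.1 and 22.9 against 19.0 and 16.3 on day 2 (adjusted p = 0.172) and 26.2 and 20.3 against 12 and 14.8 on day 4 (log2 fold change −0.75, SE 0.187, adjusted p = 0.00272). Cox6b2 had 23.5 and 21.8 against 23.8 and 27.4 on day 2 (adjusted p = 0.431), then 35.5 and 38.0 against 42.2 and 48.0 on day 4 (0.29, SE 0.151, adjusted p = 0.139). Per kilobase of exon, the means of Cox6b2 and Cox6b1 were 14.9 and 31.8 in EpiLCs, 33.2 and 32.9 in day 4 DMSO cells, and 40.7 and 18.9 in day 4 dTAG13 cells. The libraries of the forms overlapped in day 4 DMSO cells (32.1 to 34.3 and 28.7 to 37.0) and did not in EpiLCs or day 4 dTAG13 cells. The difference between the responses of these isoforms was not tested.

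In complex V, Atp5g1, which encodes the membrane c subunit that Atp5g3 also encodes, had the lowest log2 fold change of any nuclear subunit on day 4: 23.0 and 22.5 against 13.4 and 14.8 on day 2 (−0.66, SE 0.230, adjusted p = 0.0317) and 34.5 and 18.0 against 9.39 and 11.9 on day 4 (−1.17, SE 0.230, adjusted p = 3.12e-04). Atp5g3 was not called on day 2 (0.09) but was on day 4 (57.0 and 77.3 against 43.8 and 32.7, −0.79, adjusted p = 0.00729). Atp5d (−0.61, adjusted p = 0.00177, and −0.41, adjusted p = 0.0211) and the gamma subunit Atp5c1 (−0.55, adjusted p = 0.00412, and −0.57, adjusted p = 0.00215) fell on both days. The catalytic Atp5b was called on day 4, at 564 and 476 against 420 and 432 (−0.28, adjusted p = 0.0348), and Atp5a1 on neither day (adjusted p = 0.353 and 0.0965).

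Of the copies, 6 of 7 were called lower on day 2 and 5 of 7 on day 4, beside 19.9% and 26.0% of all genes. Ndufa11b had 10.4 and 8.28 against 5.28 and 3.48 on day 2 (log2 fold change −0.96, SE 0.258, adjusted p = 0.00639) and was not called on day 4 (−0.21). Cox5b-ps had 98.5 and 43.6 against 33.1 and 37.2 on day 2 (−0.88, SE 0.240, adjusted p = 0.00678) and 88.9 and 70.5 against 36.4 and 42.7 on day 4 (−0.99, adjusted p = 0.00214). Cox7a2l fell on day 4 (−0.55, adjusted p = 0.00663). Which of gene and copy was transcribed cannot be told apart from these values.

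The effect of dTAG13 on day 4 was also set against that on day 2. No member was called, beside 1.25% of all genes (0.771% higher and 0.482% lower). Unadjusted, 8 members had p under 0.05, all with a lower value on day 4 (lowest adjusted p = 0.224), and edgeR and DESeq2 on the recovered reads called 0 members too. The counts of called members on the 2 days therefore do not show that the effect differed.

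Other genes of energy metabolism, from lists fixed with earlier results of these data known, are read against all genes, of which 13.7% were higher and 19.9% lower on day 2 and 15.8% and 26.0% on day 4. Of 20 glycolysis genes, 14 were lower and none higher on day 2 and 16 lower and none higher on day 4 (medians −0.81 and −1.03). Of 16 TCA cycle genes, 5 and 7 were lower and none higher. Of 48 assembly factors tested, 5 were higher and 6 lower on day 2, and 5 higher and 9 lower on day 4, which is below the lower-call share of all genes on both days. Of 19 genes of mitochondrial gene expression and biogenesis, 1 was higher and 6 lower on day 2, and 8 were lower on day 4. Markers of cell state moved in the same comparison: all 8 pluripotency markers were lower on both days (summed values 2792 to 2956 in DMSO against 1488 to 1623 on day 2, and 3510 to 4052 against 1742 to 2009 on day 4), 3 of 7 germ cell markers were lower and 1 higher on each day, and 2 of 4 mesoderm and endoderm markers tested were higher on each day (13.6 to 16.8 against 36.7 to 45.6, then 20 to 21.3 against 42.4 to 45.1). Their part in the members' values was not tested.

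Promoters bear on whether the nuclear members share a feature. RefSeq promoters (GRCm38.p6, 300 bases around the start, most of them before it) matched 66 of 83 nuclear subunit members. They were searched on both strands for 4 words. The core of the site bound by NRF1, a factor known for driving respiratory chain genes, was in 16 members (24.2%, beside 4.78% of all 27025 promoters). CCGGAAG, the core bound by ETS factors such as GABPA, was in 16 (24.2% beside 9.12%), AANATGGCG, bound by YY1, in 8 (12.1% beside 2.51%), and TATAAA in 7 (10.6% beside 14.2%). The median number of CG pairs was 19.5 in members and 7 in all promoters. Among members in the dTAG13 table, those with the NRF1 word were called lower in 2 of 15 cases on day 2 and 4 of 15 on day 4, and those without it in 12 and 18 of 47, beside 19.9% and 26.0% of all genes. For the ETS word the counts were 2 and 5 of 15 with it and 12 and 17 of 47 without, and for the YY1 word 2 and 2 of 8 and 12 and 20 of 54. Medians followed the called shares for the YY1 word on both days and for the NRF1 word on day 2, and not in the other cases. On day 4 they were −0.43 with and −0.37 without the NRF1 word, the same for the ETS word, and −0.33 and −0.41 for the YY1 word. On day 2 they were −0.23 and −0.31, −0.24 and −0.23, and −0.43 and −0.23. No difference by word was tested. A match is a description of letters and not a bound site.

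Parts of 4 promoters are printed 5′ to 3′ on the minus strand that each gene uses, with NRF1 and ETS words in capitals: Sdhd (chr9:50603850-50603969), which fell on both days, Cox6a1 (chr5:115348959-115349130), with 2 NRF1 words, and the pair Cox6b1 (chr7:30626115-30626234), with 1 ETS word, and Cox6b2 (chr7:4753095-4753214), with neither.
Sdhd: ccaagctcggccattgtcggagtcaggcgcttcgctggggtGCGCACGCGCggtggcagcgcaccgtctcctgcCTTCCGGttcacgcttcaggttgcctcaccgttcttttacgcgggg
Cox6a1: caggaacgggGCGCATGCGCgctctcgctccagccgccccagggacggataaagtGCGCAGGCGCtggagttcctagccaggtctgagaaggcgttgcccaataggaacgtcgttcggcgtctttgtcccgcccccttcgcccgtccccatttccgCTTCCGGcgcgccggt
Cox6b1: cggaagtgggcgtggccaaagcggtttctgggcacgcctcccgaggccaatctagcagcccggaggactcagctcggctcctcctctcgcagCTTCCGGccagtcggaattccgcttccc
Cox6b2: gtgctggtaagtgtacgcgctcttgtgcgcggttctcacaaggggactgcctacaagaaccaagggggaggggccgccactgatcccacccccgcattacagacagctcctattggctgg

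The third comparison sets both overexpression clones beside the vector line over 4 stages. The fit had a term for stage and none for line, so stages of the same line stood in for replicates. Its p-values treat repeated libraries of the vector line and of both clones as independent, and do not measure the spread between lines. In the clones 7 members were higher and 1 lower, 8.51% of 94, beside 8.76% of all 15255 genes (4.54% higher and 4.22% lower). Medians were 0.11 for members and 0.01 for all genes. Without the EpiLC vector library the counts were 16 higher and 1 lower beside 10.7% of all genes, and without the day 2 or the day 4 vector library 4 higher and 1 lower beside 5.32% and 4.92%. The 3 largest rises were Ndufb4c, Cox6c2 and Cox6b2. Ndufb4c had 1.95, 2.59, 3.37 and 2.41 in the vector line from EpiLC to day 6 and 3.30 to 7.09 in the 8 clone libraries (log2 fold change 0.90, SE 0.184, adjusted p = 0.00166, higher in 8 of 8). Cox6c2 had 19.7, 16.5, 10.1 and 10.1 in the vector line and 15.1 to 35.4 in the clones (0.66, SE 0.129, adjusted p = 9.53e-04, higher than the vector line at the same stage in 8 of 8).

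Cox6b2 had 8.26 in vector EpiLCs against 14.9 and 17.4 in the clones, 17.7 against 21.6 and 32.5 on day 2, 25.7 against 33.1 and 29.1 on day 4, and 16.4 against 23.3 and 21.1 on day 6 (log2 fold change 0.53, SE 0.122, adjusted p = 0.00517, higher in 8 of 8). Ndufc2 of complex I (0.35, adjusted p = 0.0170) and Uqcrq (0.34, adjusted p = 0.0136) rose as well, and mt-Nd1 by 0.22 (SE 0.0677, adjusted p = 0.0343, higher in 6 of 8). Ndufa4l2 was the one member that fell: it was below the vector line in all 8 clone libraries (−0.70, SE 0.137, adjusted p = 0.00106), with 16.1 against 8.32 and 9.39 on day 2, 50.1 against 27.2 and 26.5 on day 4 and 53.5 against 38.6 and 42.7 on day 6.

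For the mitochondrially encoded genes the clones stood differently to the vector line by stage. Their summed value in EpiLCs was 56185 in the vector line and 48948 and 49035 in the clones; on day 2 it was 61280 against 84104 and 72665, on day 4 52581 against 61999 and 63385, and on day 6 48650 against 55708 and 56472. The clones were lower than the vector line in EpiLCs and higher on each PGCLC day. The median difference from the vector line was −0.22 in EpiLCs and 0.29, 0.23 and 0.28 on days 2, 4 and 6, while the nuclear members had 0.06, 0.12, 0.18 and −0.03.

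The change of sign was also put as the effect on PGCLC days minus that in EpiLCs. That fit was added because the change had been seen in these libraries, and its EpiLC control is 1 vector library, so its calls describe the pattern and are no independent support for it. Of 94 members 6 were called, all mitochondrially encoded and all higher on PGCLC days, beside 1.95% of all genes, 1.02% higher and 0.931% lower. The largest was mt-Cytb (0.56), with 10187 against 8783 and 8697 in EpiLCs and 7124 against 9180 and 9943 on day 4. mt-Nd6 was not called (0.26), nor was any nuclear member. Each stage has a single vector library, so a high or low share in that library cannot be told apart from a change of both clones. On PGCLC days alone, an alternative added after seeing the data, 11 members were higher and 1 lower, beside 9.12% of all genes (4.90% higher and 4.23% lower).

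**Figure D4:**
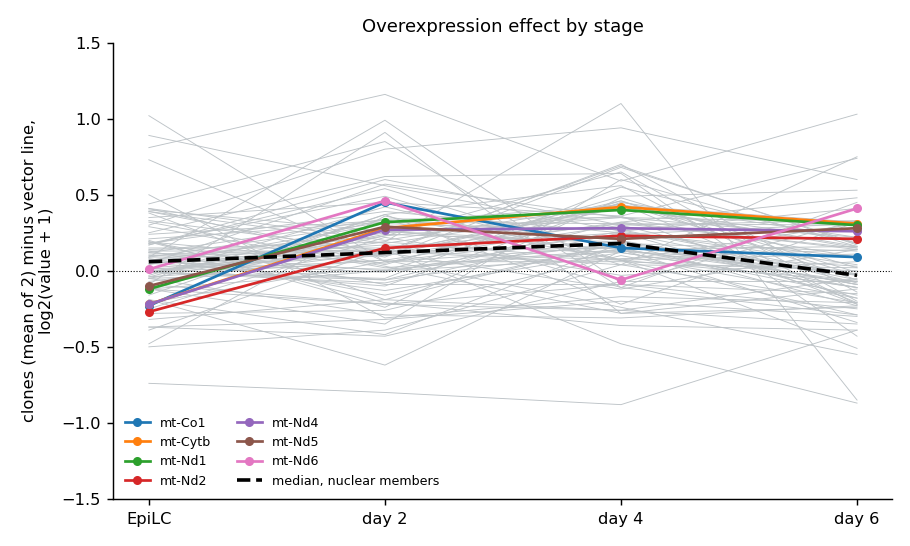
Mean of both clones minus the vector line on the log2(value + 1) scale (y axis) at each stage (x axis), with a coloured line for each mitochondrially encoded gene, grey lines for nuclear members and a dashed line for their median. The mitochondrially encoded median is −0.22 in EpiLCs and 0.23 to 0.29 on PGCLC days; mt-Nd6 lies near 0 in EpiLCs and below 0 on day 4.

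Beside 4.54% of all genes called higher and 4.22% lower, the clones had 1 glycolysis gene higher and 4 lower of 20, none of 16 TCA cycle genes called, and 2 assembly factors higher and 2 lower of 48. Tex10 rose in the clones from a value of 394 and 385 in EpiLCs to 654 and 651 on day 6, while in the vector line it went from 213 to 145, so stage and the size of the Tex10 difference cannot be told apart.

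The fourth comparison is that of the testes. In cKO testis 18 members were higher and 2 lower, 21.7% of 92, beside 29.1% of all 20658 genes (16.1% higher and 13.1% lower). Without the trend 6 members were called beside 10.3% of all genes, and with DESeq2 10 beside 24.4%. In whole testis, fewer cells of a type and less RNA per cell cannot be told apart, and the markers of cell types moved: all 7 Sertoli markers (summed value 510 to 606 in wildtype and 1479 to 1746 in cKO), all 6 Leydig markers (246 to 306 and 484 to 988), 1 of 3 macrophage markers (21.8 to 28.4 and 39.0 to 44.7) and 4 of 7 spermatogonial markers (80.0 to 92.8 and 138 to 150) were higher, while all 6 round spermatid markers (1822 to 2158 and 1228 to 1232) and 5 of 6 elongating spermatid markers (21662 to 24415 and 15538 to 16091) were lower. Of 8 spermatocyte markers none was higher and 1 lower (4080 to 4474 and 3402 to 3860). No marker of these lists was at 0 in both libraries of a genotype; the macrophage marker Adgre1 was at 0.314 to 1.53. The part of cell composition in the values below was not tested.

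All 7 mitochondrially encoded genes rose, with a median of 0.90 beside 0.01 for all genes. Their summed value was 12920 and 10517 in wildtype and 23319 and 20530 in cKO, with no overlap. mt-Nd5 had 433 and 364 in wildtype against 947 and 857 in cKO (log2 fold change 1.18, SE 0.126, adjusted p = 6.05e-05). mt-Nd6 had 92.8 and 91.2 against 215 and 200 (1.17, SE 0.117, adjusted p = 4.57e-05), and mt-Co1 6279 and 5049 against 11137 and 10674 (0.95, SE 0.172, adjusted p = 0.00129).

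mt-Cytb (0.90, adjusted p = 9.48e-04), mt-Nd1 (0.86, adjusted p = 0.00135), mt-Nd2 (0.82, adjusted p = 0.00252) and mt-Nd4 (0.65, adjusted p = 0.00392) rose too, and the wildtype and cKO libraries did not overlap for any of the 7. Without cKO replicate 1, 4 members were called in all beside 15.2% of all genes; mt-Nd5, mt-Nd6 and mt-Cytb kept their calls, and mt-Nd1, mt-Nd2, mt-Nd4 and mt-Co1 did not (adjusted p = 0.0594 to 0.151), with a median of 0.76.

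Of the 78 nuclear subunits 10 rose and 2 fell, with a median of 0.19. Without cKO replicate 1 none of the 10 kept its call, those of Sdhb, Ndufb11, Cox8a and Cox6a1 included, and Ndufa13 was the one nuclear subunit still called. Complex I had 4 higher and 1 lower of 36 (median 0.27), II 1 higher of 4 (0.25), III 1 lower of 7 (−0.10), IV 2 higher of 16 (−0.02) and V 3 higher of 15 (0.23). These counts, and the median of all nuclear subunits, include Ndufs5, Ndufa11, Cox7b and Ndufa4, which reached the minimum mean only through their cKO libraries. The median falls with the minimum level asked for: it was 0.17 among the 60 nuclear subunits with a mean of at least 5 and 0.02 among the 32 with at least 20. Scaling by the sum of genes that are not mitochondrially encoded moved the median of all genes to 0.19 and gave 26 members higher and 1 lower. Of all 20658 genes, 4733 were then higher and 1274 lower, so the share of all calls that were higher went from 55.1% to 78.8%.

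Sdhb had 4.45 and 4.55 in wildtype and 11.3 and 9.78 in cKO (log2 fold change 1.06, SE 0.271, adjusted p = 0.00978), whereas Sdha had 53.9 and 49.1 against 54.2 and 47.7 (adjusted p = 0.941). Sdhc (0.29, adjusted p = 0.169) and Sdhd (0.22, adjusted p = 0.262) were not called. Ndufb11 had 5.31 and 4.87 against 16.4 and 8.89 (1.11, SE 0.301, adjusted p = 0.0136). Ndufs5, counted among the 10, had values of 0.856 and 0 against 3.06 and 1.40 (1.20, SE 0.421, adjusted p = 0.0465). It reached the minimum mean only through its cKO libraries, so that its difference supports nothing, and it lies near the limit of 3 reads (0.381 to 0.514) with a near-identical copy. Atp5g1, Atp5g3 and Atp5h of complex V rose as well (0.88, 0.56 and 0.72, adjusted p = 0.0278, 0.0324 and 0.0473).

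Both nuclear members that fell share transcript with a neighbour. Ndufa13, a complex I subunit (chr8:69894180-69902558, minus strand), had 379 and 402 in wildtype and 248 and 261 in cKO (log2 fold change −0.62, SE 0.113, adjusted p = 0.00146). Of its 50-base stretches 27.1% also lie in Tssk6, a spermatid kinase gene on the opposite strand, which fell by 0.58 (adjusted p = 0.00392). Uqcrc2, a core protein of complex III (chr7:120635176-120659524, plus strand), had 79.1 and 77.5 against 62.7 and 58.8 (−0.36, SE 0.129, adjusted p = 0.0486) and shares 17.6% of its stretches with Pdzd9, which fell by 0.66 (adjusted p = 0.00127). Whether the counting used strand is not given in the sources used here, so the reads of such neighbours cannot be told apart.

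In testis, Cox8c, Cox7b2 and Cox6b2 were above their widely expressed counterparts in both genotypes, and Ndufa4l2 was above Ndufa4. Per kilobase of exon, Cox8c had a mean of 421 in wildtype and 371 in cKO, against 25.8 and 61.3 for Cox8a. Cox7b2 had 154 and 122 against 0.740 and 1.59 for Cox7b. Cox6b2 had 83.6 and 69.1 against 2.21 and 6.40 for Cox6b1, and Ndufa4l2 22.4 and 20.7 against 0.718 and 1.52 for Ndufa4. In every one of these pairs the lowest library of the form named first was above the highest of the other.

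None of Cox6b2, Cox7b2 and Cox8c, the testis forms of complex IV, was called between genotypes. Cox6b2 had values of 99.3 and 86.0 in wildtype and 71.7 and 81.5 in cKO (log2 fold change −0.27, SE 0.134, adjusted p = 0.146), Cox7b2 94.7 and 72.0 against 66.9 and 65.1 (−0.32, SE 0.146, adjusted p = 0.116) and Cox8c 179 and 207 against 160 and 180 (−0.18, SE 0.124, adjusted p = 0.302). For Cox6b2 and Cox7b2 the cKO libraries were below the wildtype libraries, and for Cox8c they overlapped. Of the widely expressed forms, Cox8a had 19.9 and 12.1 against 51.0 and 24.9 (1.15, SE 0.286, adjusted p = 0.00866) and Cox6a1 24.1 and 14.1 against 36.6 and 25.3 (0.69, SE 0.241, adjusted p = 0.0451), so both rose. Cox6b1 had 1.71 and 1.41 against 6.27 and 2.80 (1.04, SE 0.375, adjusted p = 0.0511) and was not called. Cox7b had 0.856 and 0.942 against 1.95 and 1.91, and Ndufa4 1.20 and 0.785 against 2.93 and 1.27. Both Cox7b and Ndufa4 reached the minimum mean only through their cKO libraries, so their differences support nothing.

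For the remaining pairs the widely expressed form was the higher. Cox4i1 had a mean per kilobase of 33.7 in wildtype and 39.0 in cKO against 3.04 and 2.92 for Cox4i2, and Cox6a1 27.3 and 44.1 against 4.83 and 2.46 for Cox6a2, the heart and muscle form. In the cells, Cox8c stayed at or under 0.535, Cox6a2 at or under 0.298 and Cox8b at 0 in all 22 libraries. Cox7b2 lay just under the minimum mean, at 0.972 in the dTAG13 table and 0.865 in the overexpression table. Of the testis forms of complex IV only Cox6b2 reached the minimum in the cells. Cox7a1, the heart and muscle form of subunit 7a, stayed at or under 1.30, and Cox7a2 had 35.2 and 32.7 in cKO against 42.3 and 29.5 in wildtype (adjusted p = 0.845).

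**Figure D5:**
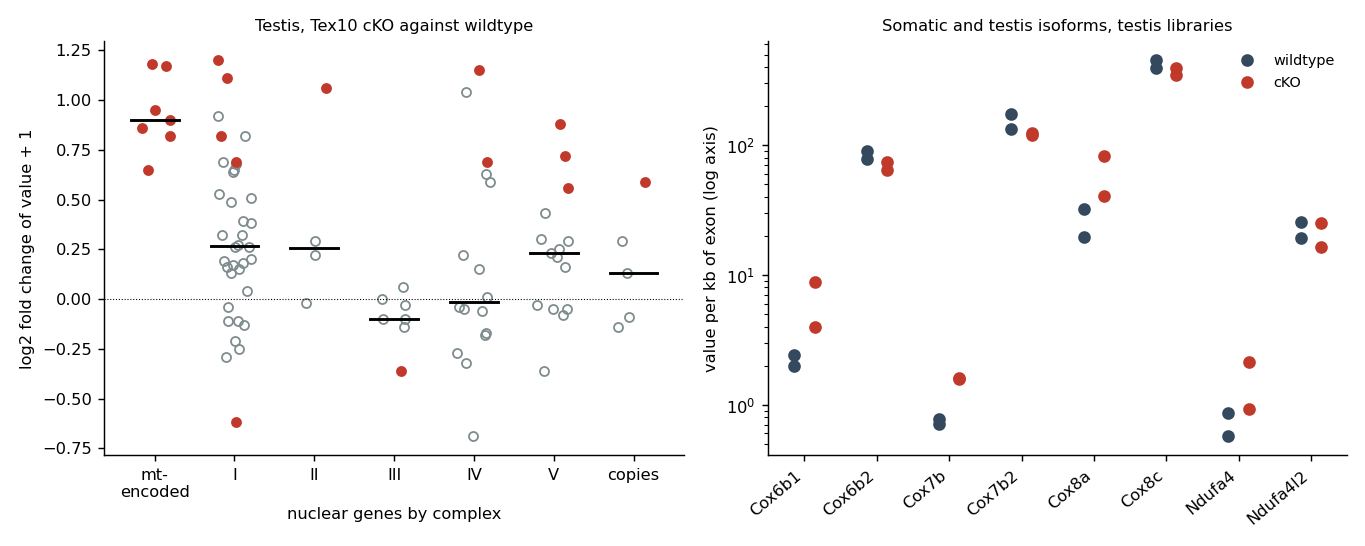
Left, log2 fold change of value + 1 (y axis), cKO against wildtype testis, for each member by genome and complex; filled red points were called, open points were not, and bars are medians. Right, value per kilobase of exon (log axis) of widely expressed and testis forms in each of 2 wildtype and 2 cKO libraries: Cox8c, at 349 to 451, is the highest in all 4, and Cox8a and Cox6b1 are higher in both cKO libraries. Cox7b and Ndufa4 reached the minimum mean only through their cKO libraries.

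The other lists in testis stand beside 16.1% of all genes called higher and 13.1% lower. In them 2 of 6 germ cell energy isoforms were lower and none higher: Gapdhs (log2 fold change −0.70, adjusted p = 0.00115) and Pgk2 (−0.51, adjusted p = 0.00794), both enzymes of sperm glycolysis. Cyct, the testis cytochrome c that carries electrons between complexes III and IV, was not called (−0.02, adjusted p = 0.939). Of 7 somatic counterparts 3 were higher and 1 lower. Of 47 assembly factors 7 were higher and 1 lower, of 16 TCA cycle genes 3 and 1, and of 20 glycolysis genes 6 and 6.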

How the data were processed

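Counts of RNA-seq reads per gene were deposited as signal values scaled with TMM by the authors, per the names of the 3 tables, beside the authors' own log2 fold changes and p-values, which were not used. Bowtie2 2.3.4.3, SAMtools 1.9, HTSeq 0.11.2, edgeR 3.26.8 and mm10 are named in the submitters' processing notes; annotation, strand and the treatment of multiply mapping reads are not given in the sources used here. Whole reads were recovered from the steps of the deposited values (100% of values within 0.1 read of a whole number). Libraries of the dTAG13 and testis experiments were made with another kit than those of the overexpression experiment, per the labels, so tests were made within a table only.

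Genes with a mean of at least 1 were tested on log2(value + 1) with limma 3.58.1, with its mean-variance trend. Each fit took all groups of a table. In the overexpression table the steps between stages had a term for line. Clones against the vector line had a term for stage and none for line. P-values were adjusted by Benjamini-Hochberg over all genes tested. Alternatives were a pseudocount of 0.1, no minimum or a minimum mean of 5, median-ratio scaling, scaling without mitochondrially encoded genes, no trend, edgeR 4.0.16 and DESeq2 1.42.0 on the recovered reads, the replicate block, only the compared groups, and each library left out. The limma code was also run on simulated counts drawn as independent libraries. That setting lacks the repeated lines and the replicate spread of these data, and no result here rests on it. Members and gene lists were chosen with earlier results of these data known. Members named with values were the 3 largest called rises and falls of each comparison, all mt- genes, Sdha to Sdhd, the tissue-restricted forms with their counterparts and the highest member of each complex; others (such as Ndufb10, Ndufv3 and Uqcrq) were named after their values were seen. The test of the overexpression effect by stage was added after seeing the data. Gene places and exon lengths came from GENCODE M21 (GRCm38) and promoters from RefSeq (GRCm38.p6).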

Additional observations from a re-analysis of the deposited data

Results flagged for a closer look

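The difference between clones and vector line in 6 mitochondrially encoded genes was higher on PGCLC days than in EpiLCs. On the log2(value + 1) scale, the difference on PGCLC days minus that in EpiLCs was 0.56 for mt-Cytb, 0.49 for mt-Nd4, 0.47 for mt-Nd2, 0.46 for mt-Nd1, 0.46 for mt-Co1 and 0.36 for mt-Nd5. In each gene both EpiLC clones were below the vector line and all 6 PGCLC clone libraries above it. These 6 were called with limma, in a fit made because the pattern had been seen in the same libraries, so the calls add no independent support. Each stage holds 1 vector library, and a high mitochondrial share in the EpiLC vector library cannot be told apart from a lower one in both clones. Sdhd had the same order of libraries without being called. The cause was not tested.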

How the results depend on the processing

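Of 1502 values of single members under alternatives, 1270 kept their direction and side of the threshold, 203 were no longer called, 29 became called and 0 turned direction; of 155 counts of called members, 110 were within 1.5 times. In this paragraph, each count that follows has in parentheses the percent of all genes called in the same fit. For EpiLC to day 2 in DMSO cells (9 called, 26.2%) the count was 17 (26.5%) with scaling by genes not mitochondrially encoded, 14 (30.8%) with only the compared groups, 4 (22.3%) with DESeq2, 0 (7.63%) without the minimum and 0 (19.9%) without the trend. For day 2 to day 4 in DMSO cells (3 called, 5.52%) it was 1 without the minimum (0.873%), without the trend (2.68%) and with only the compared groups (3.32%). For dTAG13 on day 2 (27 called, 33.6%) it was 14 (11.8%), 15 (26.9%) and 13 (26.0%) without the minimum, without the trend and with DESeq2, and on day 4 (39 called, 41.8%) 24 (16.3%), 25 (36.9%) and 21 (33.8%). For day 2 to day 4 in the vector line and clones (11 called, 23.0%) it was 6 (8.75%) without the minimum, 5 (14.7%) without the trend and 5 (16.7%) without the line term, and for day 4 to day 6 (3 called, 6.88%) 1 (1.66%), 0 (1.81%) and 1 (3.3%), and 1 (6.17%) with DESeq2. For overexpression (8 called, 8.76%) it was 4 (2.24%) without the minimum, 3 (2.83%) without the trend, 3 (2.71%) with clone 1 alone and 4 (2.79%) with clone 2 alone, and for testis (20 called, 29.1%) 6 (10.3%) without the trend and 10 (24.4%) with DESeq2. The cause was not tested.

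Leaving out each library in turn gave 1 to 8 called members for EpiLC to day 2 in DMSO cells (15% to 18.7% of all genes), 1 to 7 for day 2 to day 4 (2.56% to 6.65%), 7 to 25 for dTAG13 on day 2 (21.7% to 25.3%), 26 to 46 on day 4 (32.3% to 38.4%) and 0 to 0 for their difference (0.265% to 2.2%). For the 3 steps in the vector line and clones it gave 20 to 25 (38.8% to 42.0%), 5 to 12 (14.6% to 21.6%) and 1 to 2 (2.69% to 5.11%), for overexpression 5 to 17 (4.92% to 10.7%) and for testis 4 to 21 (15.2% to 29.5%). In the dTAG13 table the lowest counts above 0 came, in this order, without EpiLC replicate 2, day 2 DMSO replicate 2, day 2 DMSO replicate 1, and day 4 DMSO or dTAG13 replicate 1. In the other tables they came without the EpiLC or day 2 library of clone 2, the day 4 library of clone 1, any day 6 library, the day 2 or day 4 vector library, and cKO replicate 1. Where this left a group with 1 library, that library is assumed to vary like the others.

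With replicate number as a block, 8, 3, 27 and 39 members were called for both steps in DMSO cells and for dTAG13 on days 2 and 4, and 24 in testis. The percent of all genes called in these block fits is not given here, so these counts are not read against it. Same-numbered samples deviated together only weakly (correlations of 0.12, 0.093, −0.025, −0.069 and 0.12 over genes, 2 pairs each), and the labels do not say that numbers pair samples. With 2 libraries a group, members with values near the 3-read limit, such as Atp5k and Ndufs5, cannot show small differences.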
